A study of Mus musculus with 10 samples.

Results

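Ephrins, Eph receptors, semaphorins and plexins are 4 families of guidance molecules that cells use to sense their neighbours, and they were followed here through the induction of the blood and vessel factor Etv2 in mouse embryoid bodies. Members were taken by gene symbol alone, as every mouse ephrin, Eph receptor, semaphorin of classes 3 to 7 and plexin in the count table. This gave 51 of 23337 genes, namely 8 ephrins, 14 Eph receptors, 20 semaphorins and 9 plexins. Of these, 49 had enough counts to be tested. Plxnb3 and Sema3g did not, and no library exceeded 0.265 CPM for either (CPM, counts scaled to a common library size).

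Messenger RNA was sequenced from embryoid bodies, clumps of embryonic stem cells left to differentiate, of the line iHA-Etv2, whose HA-tagged Etv2 is turned on by doxycycline. The 10 libraries form 5 groups of 2: untreated at day 2, doxycycline at day 2, untreated at day 2.5, doxycycline at day 2.5, and Flk1-positive doxycycline at day 2.5. All groups carry the inducible Etv2, and the untreated groups differ from the treated ones in that no doxycycline was given. Flk1 is the receptor encoded by Kdr, and the labels do not say whether the other 8 libraries hold unsorted or Flk1-negative cells. No label gives the dose or hours of doxycycline, or says that the 2 libraries of a group came from separate cultures, so the spread behind each p-value may be only technical. The comparisons of doxycycline and of Flk1-positive samples ask what changes once Etv2 is induced, and in which cells.

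Ephrins are ligands held on the cell surface, by a lipid anchor in class A and by a membrane-spanning segment in class B, and Eph receptors are tyrosine kinases that bind them on touching cells. Semaphorins are secreted (class 3) or membrane-bound ligands, and plexins are their receptors, whose inner domain acts on small GTPases; most class 3 semaphorins also need the co-receptors Nrp1 or Nrp2. In developing vessels Efnb2 marks arterial and Ephb4 venous endothelium, and Plxnd1 is an endothelial receptor for Sema3e, which binds it without a neuropilin.

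The promoters of both these ligand and receptor pairs are shown because the results turn on the 4 genes. Each is the 250 bases upstream of the RefSeq transcription start (GRCm38.p6), written 5′ to 3′ on the strand of the gene, and capitals mark a match to a searched motif. Plxnd1 lies on chromosome 6 at 115954811 to 115995005 on the minus strand, and its window is chr6:115995006-115995255. Sema3e lies on chromosome 5 at 14025276 to 14256689 on the plus strand, with the window chr5:14025026-14025275. Efnb2 lies on chromosome 8 at 8617434 to 8661242 on the minus strand, with the window chr8:8661243-8661492, and Ephb4 on chromosome 5 at 137350109 to 137378669 on the plus strand, with the window chr5:137349859-137350108.
Plxnd1: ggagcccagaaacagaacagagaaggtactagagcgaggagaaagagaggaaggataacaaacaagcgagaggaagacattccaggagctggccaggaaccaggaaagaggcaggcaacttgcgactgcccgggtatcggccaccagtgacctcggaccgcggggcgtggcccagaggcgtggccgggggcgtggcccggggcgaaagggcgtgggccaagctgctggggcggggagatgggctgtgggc
Sema3e: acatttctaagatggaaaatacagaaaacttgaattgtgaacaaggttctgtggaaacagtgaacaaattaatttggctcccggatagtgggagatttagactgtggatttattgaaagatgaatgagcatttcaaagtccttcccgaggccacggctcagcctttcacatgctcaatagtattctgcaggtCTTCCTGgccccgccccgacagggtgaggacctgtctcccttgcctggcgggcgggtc
Efnb2: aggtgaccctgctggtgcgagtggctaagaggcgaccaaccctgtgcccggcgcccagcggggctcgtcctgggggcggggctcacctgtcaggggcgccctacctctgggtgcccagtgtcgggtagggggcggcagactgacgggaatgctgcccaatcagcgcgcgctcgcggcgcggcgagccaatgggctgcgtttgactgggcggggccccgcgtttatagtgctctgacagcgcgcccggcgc
Ephb4: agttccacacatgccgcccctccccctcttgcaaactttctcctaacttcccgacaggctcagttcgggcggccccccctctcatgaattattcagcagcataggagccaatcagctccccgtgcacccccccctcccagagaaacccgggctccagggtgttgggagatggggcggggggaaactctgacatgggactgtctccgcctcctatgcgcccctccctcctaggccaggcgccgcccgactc

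Both strands were searched for 4 motifs. The letters CCGGAAG are a motif that ETS factors such as Etv2 can bind. A variant of the ETS motif was searched as CAGGAAG, and the motif of the GATA factors as AGATAA. An E-box, which helix-loop-helix factors bind, was searched as CATCTG. The search window was 300 bases, those upstream and the 50 that follow the start. Of the 4 promoters shown, the upstream bases of Sema3e hold 1 match, at -58, to the variant ETS motif read on the other strand. Of 45 members with a window, 10 (22.2%) held either ETS motif, against 23.1% of 27025 genes. AGATAA was in 2 (4.44%, against 12.7%) and CATCTG in 5 (11.1%, against 19.2%). These are matches of letters and show neither binding nor its absence.

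Counted over all comparisons, 39 of the 49 tested members passed the threshold (edgeR quasi-likelihood test, adjusted p under 0.05 after Benjamini-Hochberg adjustment over 14548 genes) at least once, and 10 never did. The share of all genes that passed at least once was not counted, so the 39 do not set these families apart. With doxycycline at day 2, 3 members were higher and 7 lower, where 3.11% of all genes tested were called higher and 1.56% lower. At day 2.5, 14 were higher and 7 lower with doxycycline (16.1% and 13.8% of all genes). In Flk1-positive against doxycycline samples of day 2.5, 15 were higher and 14 lower (20.5% and 21.3% of all genes), and against untreated samples of day 2.5, 17 were higher and 15 lower (28.6% and 26.6%). Untreated samples of day 2.5 against day 2 gave 8 higher and 3 lower (9.22% and 10.3%). The median log2 fold change of the tested members lay between -0.13 and 0.21 in the 6 comparisons, and that of all genes between -0.02 and 0.01. Families differed within this: in Flk1-positive against doxycycline samples the median was 0.57 for the plexins and -0.65 for the ephrins. The 3 comparisons of day 2.5 share libraries and are not independent of each other.

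Single libraries moved some of these counts. The 7 lower calls of day 2 became 2 without either untreated day 2 library and 11 without doxycycline day 2 replicate 2, and the 3 higher calls became 5 without either doxycycline day 2 library. In Flk1-positive against doxycycline samples, 9 lower calls were left without Flk1-positive replicate 2. The 8 higher calls between untreated days became 4 without untreated day 2 replicate 1. The 3 lower calls became 1 or 0 without any of the 4 libraries compared, and 5 without either doxycycline day 2 library. With trends on exon length and GC content removed, the split at day 2.5 with doxycycline was 13 higher and 13 lower, and that of Flk1-positive against untreated samples was 14 higher and 19 lower.

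Depth ran from 18074070 to 36068329 counts per library, and a count of 0 allows up to 3 counts, or 0.0824 to 0.164 CPM (counting error only). Etv2 stood at 403 to 507 CPM in doxycycline day 2 libraries and 255 to 323 CPM in both doxycycline groups of day 2.5, against 6.57 to 18.1 CPM in untreated ones, and reads of the induced copy and of the gene's own locus cannot be told apart. Kdr, which defines the Flk1-positive group, stood at 986 to 1008 CPM there and at 405 to 433 CPM in the other doxycycline libraries of day 2.5. Between the pair of doxycycline day 2 libraries the chi-square per gene was 31.8, against 3.29 to 9.52 in the other pairs. The difference of that pair had a rank correlation of -0.454 with exon length across 14402 genes. With GC content the rank correlation was 0.317 in that pair and 0.368 in the Flk1-positive pair. Cell type markers differed in level between the groups. The summed level of 12 endothelial markers was 58.5 to 104 CPM in untreated libraries, 217 to 261 with doxycycline at day 2, 874 to 912 at day 2.5 and 2211 to 2319 in Flk1-positive libraries, and Emcn was at 0 counts in the groups of day 2 and in untreated day 2.5. Kdr is 1 of these 12, with group means of 419 CPM with doxycycline at day 2.5 and 997 CPM in Flk1-positive samples. The endothelial sum is therefore not independent of how that group was defined. Pecam1 went the other way between these groups, from 8.35 to 5.4 CPM. For 11 haematopoietic markers the ranges over the same libraries were 15.8 to 21.9, 113 to 117, 677 to 696 and 1747 to 1837 CPM. Tal1, Lmo2 and Gata2 carried most of the last sums, with Flk1-positive group means of 651, 589.7 and 514 CPM, followed by Itga2b at 13.7 CPM. With doxycycline at day 2.5, 8 of 10 tested were called higher and 0 lower (16.1% and 13.8% of all genes). Klf1 had group means of 0.398 untreated, 0.166 with doxycycline and 0.156 CPM Flk1-positive at day 2.5. Hbb-bh1 was at 0 in both doxycycline groups of day 2.5. The 10 primitive streak markers summed to 2637 and 2995 CPM in untreated day 2.5 libraries, 815 to 848 with doxycycline and 789 to 829 in Flk1-positive ones, where Msgn1 was at 0. From doxycycline to Flk1-positive samples, 4 of these 10 markers were called higher and 5 lower (20.5% and 21.3% of all genes). Group means there went from 362 to 561 CPM for T and from 334 to 127 CPM for Eomes. The 10 pluripotency markers summed at day 2.5 to 2270 and 2342 untreated, 1206 and 1235 with doxycycline, and 921 and 985 CPM Flk1-positive. None of them was at 0. Within this list Nanog went from a group mean of 252 to 73.4 and 2.07 CPM, whereas Pou5f1 went from 983 to 725 and 827 CPM. The sums of 7 neural crest markers were 32.5 and 32.6, 22.8 and 23.0, and 5.04 and 5.72 CPM, with Tfap2b at 0 in the untreated and doxycycline groups. Foxd3 had the highest level among them in the first 2 groups, with group means of 21.9, 13.6 and 2.5 CPM. With doxycycline at day 2.5, 2 of 6 tested were called higher and 1 lower (16.1% and 13.8% of all genes). Group means there went from 0.149 to 0.863 CPM for Pax3 and from 0.108 to 0.62 CPM for Snai2. The sums of 9 endoderm markers were 61.0 and 62.8, 75.0 and 83.8, and 148 and 139 CPM. Afp was at 0 in all 3 groups and Ttr in the untreated one. Members of that list differed in direction, with group means of 0.505, 10.8 and 41.4 CPM for Sox17, which is also on the arterial list, and of 26.7, 9.25 and 0.671 CPM for Foxa2. The 9 neuroectoderm markers summed to 328 and 353, 432 and 415, and 305 and 337 CPM, with Neurog2 at 0 in the doxycycline and Flk1-positive groups, and the 10 smooth muscle and fibroblast markers to 165 and 181, 106 and 111, and 64.2 and 59.6 CPM, with Dcn at 0 in the Flk1-positive group. In bulk samples, fewer cells of a type and less RNA per cell cannot be told apart, and the part of these cell types in the results that follow was not tested.

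**Figure D1:**
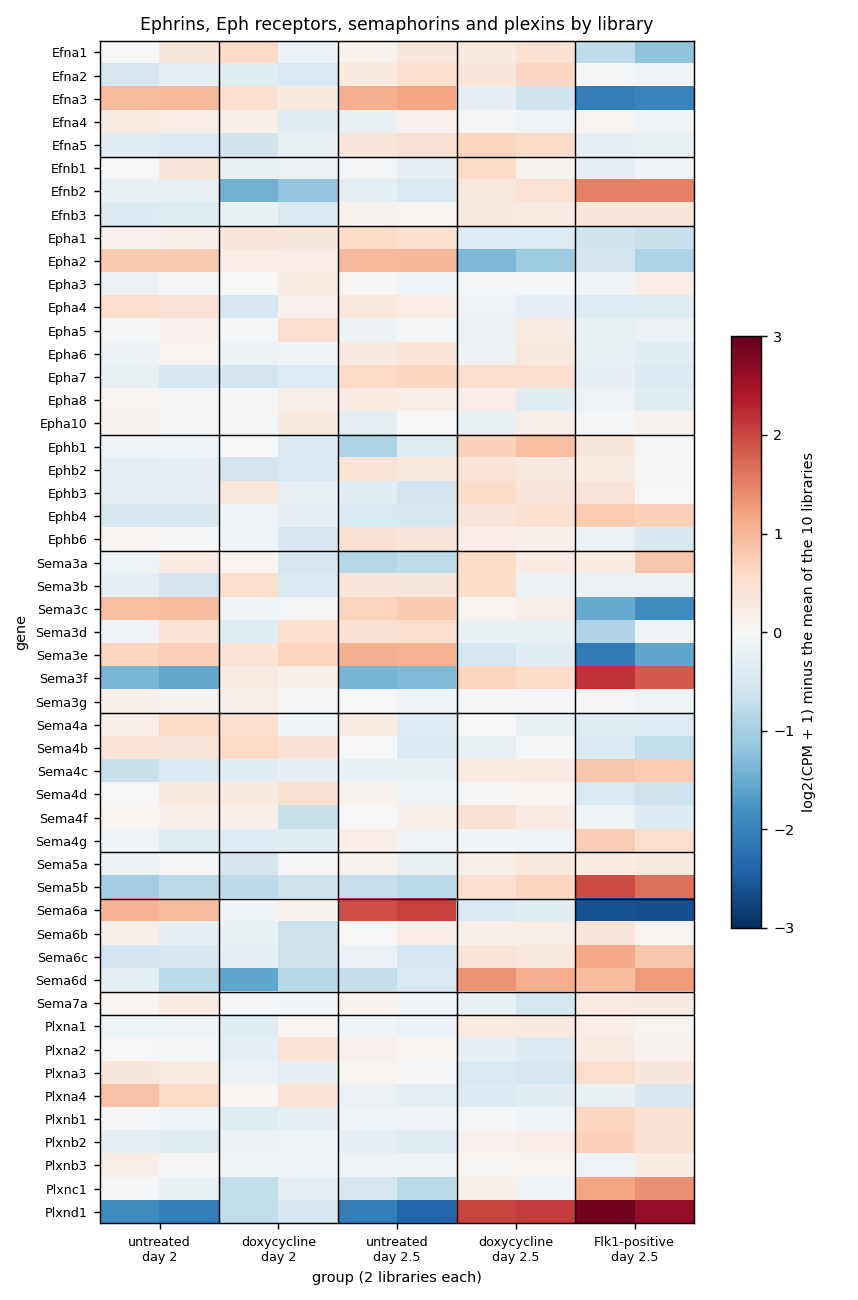
Each row is 1 of the 51 genes and each column 1 of the 10 libraries, with 2 libraries per group; the colour is log2(CPM + 1) minus the gene's mean over the 10 libraries, limited to 3 in either direction. Plxnd1, Sema3f, Sema5b and Efnb2 are highest in the Flk1-positive libraries, whereas Sema6a, Efna3, Sema3e and Sema3c are lowest there.

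Compared per exon length, the order of the genes changed with induction. Epha1, a receptor found on epithelial cells, had the highest level of the 51 genes in the untreated and the doxycycline groups, with a group mean of 101 CPM per kilobase in untreated and 53.1 in doxycycline samples of day 2.5. Plxnd1 ranked 29 in untreated samples of day 2.5 (1.59 CPM per kilobase), 4 with doxycycline (33.5) and 1 in Flk1-positive samples (55.2). Sema6a went the other way, from rank 3 (34.8 CPM per kilobase) to 18 (6.6) and 32 (1.3). Summed over the 9 plexins, the level per kilobase was 77.3 and 80.8 in untreated, 128 and 132 in doxycycline, and 183 and 160.3 in Flk1-positive libraries of day 2.5. For the 9 EphA receptors it was 154 and 147, then 68.0 and 69.1, then 64.8 and 59.2, and for the 3 class B ephrins 16.0 and 14.9, then 22.6 and 23.0, then 40.2 and 40.8. Plexin and class B ephrin sums thus stood higher, and EphA sums lower, in both induced groups of day 2.5 than in the untreated one, with no overlap of libraries. Few genes carried these sums. Efnb2 went from 8.80 to 14.7 and 32.7 CPM per kilobase, while Efnb1 stayed between 1.26 and 2.04 and Efnb3 between 5.34 and 6.54, Epha1 and Epha2 were the EphA receptors with the highest levels, and Plxnd1 was the plexin with the widest range.

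Among the ephrins, Efnb2 changed direction between the days. Its level was 67.3 and 66.4 CPM in untreated and 28.2 and 33.9 CPM in doxycycline libraries of day 2. By day 2.5 the level was 63.0 and 57.7 CPM untreated, 96.5 and 105 CPM with doxycycline, and 223 and 225 CPM in Flk1-positive libraries. The doxycycline libraries therefore lay below the untreated ones at day 2 and above them at day 2.5, without overlap at either day. Efnb2 fell by 1.11 ± 0.10 on the log2 scale at day 2 (SE; edgeR adjusted p = 6.58e-06) and rose by 0.74 ± 0.10 at day 2.5 (edgeR adjusted p = 4.00e-05). The test of the difference between these 2 effects gave 1.85 ± 0.14 (edgeR adjusted p = 6.91e-07). From doxycycline to Flk1-positive samples it rose by a further 1.15 ± 0.10 (edgeR adjusted p = 4.33e-07), and against untreated samples of day 2.5 Flk1-positive samples were 1.89 ± 0.10 higher (edgeR adjusted p = 5.27e-10). Efnb2 did not pass the test between the untreated days.

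Class A ephrins, the lipid-anchored ligands, were lower in Flk1-positive samples in 4 of 5 cases, against doxycycline and against untreated samples alike. Of all genes, 21.3% and 26.6% were lower in these comparisons. Efna2 against untreated samples lost its call without untreated day 2.5 replicate 2 (edgeR adjusted p = 0.0636). Efna3 was at 33.9 and 34.4 CPM in untreated and 24.2 and 20.8 CPM in doxycycline libraries of day 2, and at 37.5 and 40.6 CPM untreated, 14.3 and 11.0 CPM with doxycycline and 3.34 and 3.55 CPM in Flk1-positive libraries of day 2.5. The groups of day 2.5 did not overlap and stood in that order. Efna3 fell by 1.63 ± 0.14 with doxycycline at day 2.5 (edgeR adjusted p = 5.07e-07) and by a further 1.88 ± 0.17 in Flk1-positive samples (edgeR adjusted p = 9.18e-07). Its fall of 0.60 ± 0.14 at day 2 (edgeR adjusted p = 0.0239) was lost without either untreated day 2 library (0.169 and 0.178) and with only the groups compared (0.131), and 14.1% of its exon bases overlap another gene, Gm15998. Efna1 lay between 4.25 and 7.93 CPM in the 8 other libraries and at 2.52 and 1.59 CPM in Flk1-positive ones, a fall of 1.69 ± 0.32 against doxycycline samples (edgeR adjusted p = 6.12e-04). Efna5 and Efna2 rose between the untreated days by 0.82 ± 0.14 and 0.84 ± 0.13 and were lower in Flk1-positive than in doxycycline samples by a log2 fold change of -0.89 and -0.60. Efna4 passed the test in no comparison, and its libraries ranged from 18.1 to 26.7 CPM. The other class B ephrins each passed once, Efnb1 with a fall of 0.70 ± 0.25 from doxycycline to Flk1-positive samples (edgeR adjusted p = 0.0376) and Efnb3 with a rise of 0.53 ± 0.15 between untreated days (edgeR adjusted p = 0.0203). The call of Efnb1 was lost without either Flk1-positive library or doxycycline day 2.5 replicate 1 (0.0788 to 0.352), and that of Efnb3 without any of the 4 libraries compared (0.074 to 0.138).

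With doxycycline at day 2.5, the Eph receptor Ephb4 rose while the EphA receptors Epha1 and Epha2 fell. Ephb4, the receptor of Efnb2, was at 91.6 and 94.0 CPM in untreated and 123 and 112 CPM in doxycycline libraries of day 2. Day 2.5 libraries stood at 95.8 and 94.2 CPM untreated, 172 and 185 CPM with doxycycline and 223 and 213 CPM in Flk1-positive libraries. All 6 doxycycline-treated libraries were above all 4 untreated ones. Ephb4 rose by 0.91 ± 0.09 on the log2 scale with doxycycline at day 2.5 (edgeR adjusted p = 1.14e-06) and was 1.20 ± 0.09 higher in Flk1-positive than in untreated samples (edgeR adjusted p = 1.88e-08). The rise of 0.34 ± 0.09 at day 2 (edgeR adjusted p = 0.0357) was lost without any library outside the doxycycline day 2 group (0.0557 to 0.314), and with only the groups compared (0.283). That of 0.29 ± 0.09 from doxycycline to Flk1-positive samples (edgeR adjusted p = 0.014) was lost without doxycycline day 2.5 replicate 1 (0.132) or Flk1-positive replicate 1 (0.087). Ephb4 did not pass the test between untreated days.

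Ephb1, which also binds class B ephrins, was highest with doxycycline at day 2.5. Its libraries stood at 4.29 and 4.36 CPM untreated and 4.77 and 3.32 CPM with doxycycline at day 2, and at 2 and 3.44 CPM untreated, 8.18 and 9.61 CPM with doxycycline and 6.28 and 4.5 CPM Flk1-positive at day 2.5. The doxycycline libraries of day 2.5 were above all others. Ephb1 rose by 1.70 ± 0.28 with doxycycline at day 2.5 (edgeR adjusted p = 2.89e-04). Its fall of 0.71 ± 0.27 from there to Flk1-positive samples (edgeR adjusted p = 0.0427) was lost without any of the 4 libraries compared (0.0524 to 0.269) or without either untreated day 2 library (0.0587 and 0.0589), and with DESeq2 (adjusted p = 0.0516). Ephb3 also rose with doxycycline at day 2.5, by 0.93 ± 0.17. Thus 3 of the 5 EphB receptors were called higher and none lower there (16.1% and 13.8% of all genes). Ephb2 and Ephb6 did not pass that test, but both were called lower once trends on length and GC content were removed (-0.29 and -0.41).

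Epha2, a receptor of class A ephrins, was at 171 and 170.3 CPM in untreated and at 112 CPM in both doxycycline libraries of day 2. The levels of day 2.5 were 192 and 198 CPM untreated, 37.7 and 46.7 CPM with doxycycline and 65.1 and 50.9 CPM in Flk1-positive libraries. Every doxycycline-treated library was below every untreated one. Epha2 fell by 2.21 ± 0.12 with doxycycline at day 2.5 (edgeR adjusted p = 1.84e-09). The fall of 0.60 ± 0.12 at day 2 (edgeR adjusted p = 0.00587) was lost without either untreated day 2 library (0.0747 and 0.0663). Of the 7 members that fell with doxycycline at day 2.5, Epha2 and Plxna3 alone were called higher in Flk1-positive than in doxycycline samples. For Epha2 this was a rise of 0.46 ± 0.12 (edgeR adjusted p = 0.0061), lost without replicate 1 of doxycycline day 2.5 (0.108) or of the Flk1-positive group (0.131).

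Epha1 was at 302 and 303 CPM in untreated and 350.2 and 346 CPM in doxycycline libraries of day 2, and at 412 and 382 CPM untreated, 209 and 208 CPM with doxycycline and 181 and 173 CPM Flk1-positive at day 2.5. Its libraries were thus lowest in the induced groups of day 2.5. Epha1 fell by 0.93 ± 0.08 with doxycycline at day 2.5 (edgeR adjusted p = 4.45e-07), and 6.01% of its exon bases overlap Zyx. Epha7, a receptor known from neural tissue, was at 17.0 and 14.1 CPM untreated and 13.4 and 15.1 CPM with doxycycline at day 2, and at 30.8 and 31.9, 29.1 and 29.0, and 16.8 and 14.7 CPM in untreated, doxycycline and Flk1-positive libraries of day 2.5. It rose with time by 1.01 ± 0.14 in untreated samples (edgeR adjusted p = 3.89e-04) and was lower by a log2 fold change of -0.88 ± 0.14 in Flk1-positive than in doxycycline samples (edgeR adjusted p = 1.37e-04). Doxycycline itself gave no call for Epha7 at either day. Of 7 tested neuroectoderm markers, 6 were also lower in Flk1-positive than in doxycycline samples (median log2 fold change -1.43). So were 8 of 10 pluripotency and 4 of 6 tested neural crest markers, where 21.3% of all genes were lower. In Flk1-positive against untreated samples, 3 of the 7 neuroectoderm markers were lower and 1 higher (median -0.21). The part of these markers in the fall of Epha7 was not tested. Against untreated samples of day 2.5, 5 of 9 EphA receptors were lower in Flk1-positive samples and none higher (26.6% and 28.6% of all genes). Epha4 was among them (-0.67 ± 0.19, edgeR adjusted p = 0.00704), a call lost without untreated day 2.5 replicate 1 (0.0534). Its fall at day 2 with doxycycline, -0.68 ± 0.19 (edgeR adjusted p = 0.0476), was lost without any library other than doxycycline day 2 replicate 2 (0.0779 to 0.31) and with only the groups compared (0.317). Another was Epha6, with 28 counts over both untreated and 2 over both Flk1-positive libraries, a ratio of 12.8 (95% counting interval 3.23 to 111). Its call was lost without untreated day 2.5 replicate 2 (edgeR adjusted p = 0.0647) or Flk1-positive replicate 2 (0.0965). Epha3, Epha5, Epha8 and Epha10 passed in no comparison, and Epha8 was the only one of these 4 above 1 CPM, at 5.61 to 8.79 CPM.

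**Figure D2:**
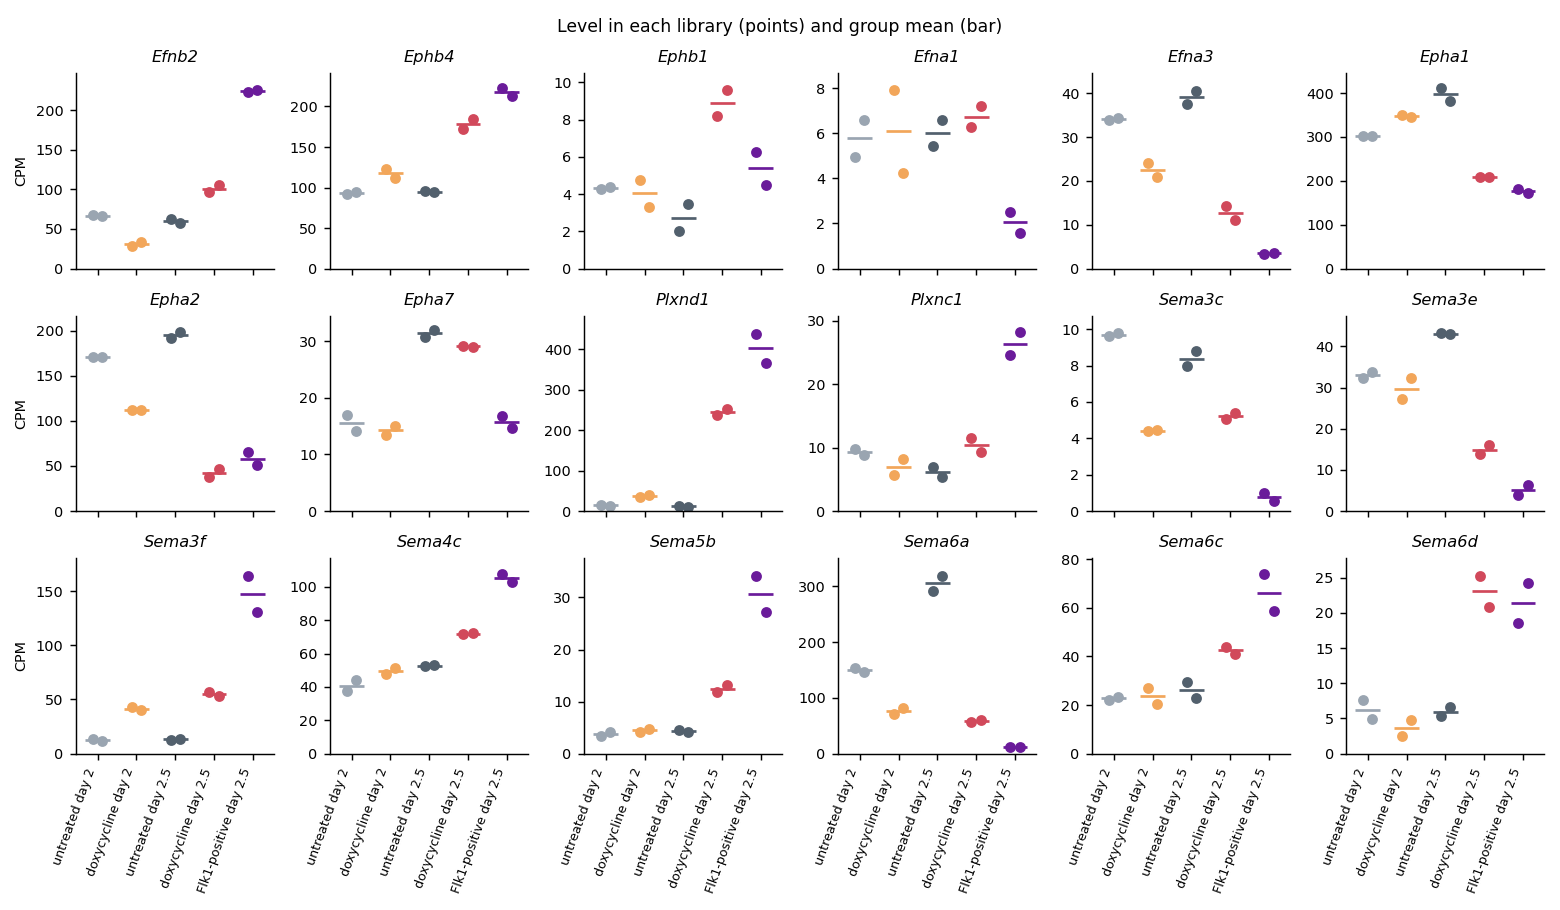
Each panel shows 1 of the 18 genes that passed the test with a log2 fold change of at least 1 and a group mean of at least 5 CPM; the vertical axis is CPM from 0, points are libraries and bars group means (n = 2). Efnb2, Ephb4, Plxnd1, Sema3f and Sema4c stand highest in Flk1-positive libraries, and Efna3, Sema3c, Sema3e and Sema6a lowest.

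Semaphorins split most widely. Of the secreted class 3, Sema3f, a ligand that acts through Nrp2, was at 13.3 and 11.7 CPM in untreated and 42.8 and 40.1 CPM in doxycycline libraries of day 2. At day 2.5 it was at 13.0 and 13.8 CPM untreated, 56.6 and 52.9 CPM with doxycycline and 164 and 131 CPM in Flk1-positive libraries. Treated and untreated libraries did not overlap at either day, and the Flk1-positive libraries were above all others. Sema3f rose by 1.72 ± 0.13 on the log2 scale at day 2 (edgeR adjusted p = 7.16e-07) and by 2.03 ± 0.13 at day 2.5 (edgeR adjusted p = 8.62e-09), and by a further 1.43 ± 0.12 in Flk1-positive samples (edgeR adjusted p = 2.78e-07). The effects at the 2 days were not shown to differ, as Sema3f did not pass the interaction test.

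Sema3e, the ligand of Plxnd1, was at 32.2 and 33.8 CPM untreated and 27.1 and 32.2 CPM with doxycycline at day 2, where the groups met at 32.2 CPM and no change was called. At day 2.5 it was at 43.2 and 43.0 CPM untreated, 13.8 and 16.0 CPM with doxycycline and 3.92 and 6.25 CPM in Flk1-positive libraries. It fell by 1.53 ± 0.16 with doxycycline (edgeR adjusted p = 3.04e-06) and by a further 1.57 ± 0.18 in Flk1-positive samples (edgeR adjusted p = 1.01e-05). Sema3c, a ligand for both neuropilins, was at 9.61 and 9.76 CPM untreated and 4.39 and 4.45 CPM with doxycycline at day 2, and at 7.96 and 8.78, 5.05 and 5.37, and 0.991 and 0.530 CPM in untreated, doxycycline and Flk1-positive libraries of day 2.5. Its Flk1-positive libraries were below all others, and it fell there by 2.73 ± 0.28 against doxycycline samples (edgeR adjusted p = 3.18e-06). The doxycycline effect on Sema3c was -1.13 ± 0.23 at day 2 (edgeR adjusted p = 0.00763), lost without either untreated day 2 library (0.0809 and 0.0755) and with only the groups compared (0.0521). At day 2.5 it was -0.68 ± 0.22 (edgeR adjusted p = 0.0261), lost without any of the 4 libraries compared (0.0652 to 0.131).

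Sema3a, the ligand that acts through Nrp1, stayed low, between 0.174 and 2.81 CPM. At day 2 it was at 0.953 and 1.53 CPM untreated and at 1.27 and 0.537 CPM with doxycycline. Its untreated day 2.5 libraries were the lowest, at 0.174 and 0.249 CPM, against 2.14 and 1.53 CPM with doxycycline and 1.49 and 2.81 CPM in Flk1-positive libraries. The rise with doxycycline was 3.09 ± 0.63 (edgeR adjusted p = 0.00157). Sema3d did not exceed 2.20 CPM. It was lower in Flk1-positive than in untreated samples (-1.83 ± 0.65, edgeR adjusted p = 0.0269), a call lost without either untreated day 2.5 library (0.0786 and 0.0901) or Flk1-positive replicate 1 (0.219). Sema3b passed in no comparison.

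The largest fall among the membrane-bound semaphorins was that of Sema6a, a ligand of A-type plexins. Its level was 153 and 147 CPM in untreated and 71.4 and 81.9 CPM in doxycycline libraries of day 2. At day 2.5 it was 292 and 318 CPM untreated, 56.0 and 59.9 CPM with doxycycline and 11.5 and 11.3 CPM in Flk1-positive libraries. Untreated libraries were above treated ones at both days, and the Flk1-positive pair was below all others. Sema6a fell by 0.97 ± 0.09 with doxycycline at day 2 (edgeR adjusted p = 9.28e-06), by 2.40 ± 0.10 at day 2.5 (edgeR adjusted p = 5.95e-11) and by a further 2.34 ± 0.11 in Flk1-positive samples (edgeR adjusted p = 1.12e-09). Between untreated days it rose by 1.02 ± 0.09 (edgeR adjusted p = 1.23e-05).

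Other members of the same class rose. Sema6d, which binds Plxna1, was at 7.58 and 4.91 CPM untreated and 2.5 and 4.84 CPM with doxycycline at day 2, and at 5.31 and 6.59, 25.3 and 20.9, and 18.6 and 24.3 CPM in untreated, doxycycline and Flk1-positive libraries of day 2.5. Both induced groups of day 2.5 were above all other libraries and overlapped each other, and the rise with doxycycline was 1.95 ± 0.26 (edgeR adjusted p = 3.27e-05). Sema6c was at 20.6 to 29.3 CPM in the untreated and day 2 libraries, 43.8 and 41.1 CPM with doxycycline at day 2.5 and 73.9 and 58.7 CPM in Flk1-positive ones. Flk1-positive samples were 1.35 ± 0.16 above untreated ones (edgeR adjusted p = 2.90e-06). The smaller steps of Sema6c, 0.71 ± 0.15 with doxycycline and 0.64 ± 0.15 from there to Flk1-positive samples, were lost without untreated day 2.5 replicate 2 (edgeR adjusted p = 0.0585) and Flk1-positive replicate 1 (0.0634). Sema6b passed in no comparison.

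Sema5b, a transmembrane semaphorin with thrombospondin repeats, was at 3.38 to 4.74 CPM in the untreated and day 2 libraries, 11.8 and 13.2 CPM with doxycycline at day 2.5 and 34.2 and 27.2 CPM in Flk1-positive libraries. The 3 levels did not overlap. Its rises were 1.51 ± 0.19 with doxycycline at day 2.5 (edgeR adjusted p = 1.73e-05) and 1.30 ± 0.17 from there to Flk1-positive samples (edgeR adjusted p = 2.60e-05). Sema4c, a ligand of Plxnb2, was at 37.4 and 44.2 CPM untreated and 48.0 and 51.2 CPM with doxycycline at day 2, and at 52.6 and 52.9, 71.6 and 72.1, and 108 and 103 CPM in untreated, doxycycline and Flk1-positive libraries of day 2.5. It was 2-fold higher in Flk1-positive than in untreated samples (SE 0.10 on the log2 scale, edgeR adjusted p = 6.50e-07). Sema4d, the ligand of Plxnb1, was lower in Flk1-positive than in doxycycline samples by a log2 fold change of -0.58 ± 0.12 (edgeR adjusted p = 0.00142). Sema4g rose there by 0.78 ± 0.17 (edgeR adjusted p = 0.00218). Sema4b fell by 0.44 ± 0.15 (edgeR adjusted p = 0.0261), a call lost without replicate 2 of either group (0.2 and 0.245). Sema7a rose by 0.85 ± 0.29 (edgeR adjusted p = 0.0291), a call lost without either Flk1-positive library or doxycycline day 2.5 replicate 2 (0.0862 to 0.19). Sema4a, Sema4f and Sema5a passed in no comparison. Of the genes that never passed, Efna4, Sema3b, Sema4f, Sema5a and Sema6b were each called in at least 1 comparison when 1 of the doxycycline day 2 libraries was left out.

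Plexins were the family in which no tested member was called lower in Flk1-positive samples. Of 8 tested, 6 were called higher and none lower, both against doxycycline and against untreated samples. In these comparisons 20.5% and 28.6% of all genes were higher, and 21.3% and 26.6% lower. Against untreated samples, Plxna1 and Plxna3 were no longer called once trends on length and GC content were removed (edgeR adjusted p = 0.67 and 0.295), which left 4. Plxnd1 was at 14.9 and 13.0 CPM in untreated and 34.4 and 39.8 CPM in doxycycline libraries of day 2. In the later samples, of day 2.5, it was at 12.9 and 10.3 CPM untreated, 237 and 252 CPM with doxycycline and 439 and 366 CPM in Flk1-positive libraries. The treated libraries were above the untreated ones at both days. Plxnd1 rose by 1.41 ± 0.13 on the log2 scale at day 2 (edgeR adjusted p = 6.58e-06) and by 4.40 ± 0.14 at day 2.5 (edgeR adjusted p = 3.16e-12), or 21.1-fold. The difference between these effects was 2.99 ± 0.19 (edgeR adjusted p = 9.54e-08). Flk1-positive samples were a further 0.72 ± 0.11 above doxycycline samples (edgeR adjusted p = 1.58e-04) and 5.12 ± 0.14 above untreated ones (edgeR adjusted p = 2.01e-13). Between untreated days Plxnd1 did not pass the test.

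Plxnc1, the receptor of Sema7a, was at 9.83 and 8.84 CPM untreated and 5.76 and 8.21 CPM with doxycycline at day 2, and at 7.00 and 5.39, 11.6 and 9.30, and 24.6 and 28.2 CPM in untreated, doxycycline and Flk1-positive libraries of day 2.5. The Flk1-positive libraries were above all others, by 1.33 ± 0.19 against doxycycline samples (edgeR adjusted p = 6.62e-05). The rise of 0.76 ± 0.20 with doxycycline (edgeR adjusted p = 0.0108) was lost without untreated day 2.5 replicate 2 (0.126) or doxycycline day 2.5 replicate 1 (0.144). Plxnb1, the receptor of Sema4d, was not called with doxycycline at either day, but was lower at day 2.5 with trends on length and GC content removed (-0.23, edgeR adjusted p = 0.0105) and at day 2 without doxycycline day 2 replicate 2 (-0.28, 0.0283). It rose by 0.62 ± 0.09 in Flk1-positive against doxycycline samples (edgeR adjusted p = 6.29e-05). Plxnb2 rose in both steps, by 0.47 ± 0.09 with doxycycline at day 2.5 (edgeR adjusted p = 0.00121) and by 0.42 ± 0.09 from there to Flk1-positive samples (edgeR adjusted p = 0.00197).

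Plxna3, an A-type plexin that works with neuropilins, was lowest in doxycycline and highest in Flk1-positive libraries of day 2.5. It was at 33.9 and 30.6 CPM in untreated, 23.0 and 22.4 CPM in doxycycline and 46.4 and 41.2 CPM in Flk1-positive libraries of day 2.5, with no overlap. The fall was 0.51 ± 0.12 (log2 fold change -0.51, edgeR adjusted p = 0.00394) and the rise 0.95 ± 0.12 (edgeR adjusted p = 1.52e-05). At day 2 Plxna3 was also lower with doxycycline (-0.54 ± 0.12, edgeR adjusted p = 0.0136), a call lost without either untreated day 2 library (0.184 and 0.0781) and with only the groups compared (0.144). Plxna1, the plexin with the highest level per exon length in untreated samples, ranged from 271 to 408 CPM. Its rise of 0.42 ± 0.10 with doxycycline at day 2.5 (edgeR adjusted p = 0.00665) was not called once trends on length and GC content were removed (0.143), or without untreated day 2.5 replicate 2 (0.0619) or either doxycycline day 2.5 library (0.07 and 0.0584), and 10.7% of its exon bases overlap Gm26811. Plxna2 was called higher in Flk1-positive against doxycycline samples (0.52 ± 0.18, edgeR adjusted p = 0.0332), a call lost without any library of day 2.5 (0.0527 to 0.191). With doxycycline at day 2.5 it was not called (-0.44, edgeR adjusted p = 0.0856), but was lower without either doxycycline day 2 library (0.00607 and 0.00687), with no filter (0.0135), with only the groups compared (0.0108) and with trends on length and GC content removed (-0.72, 2.46e-04). At day 2 it was called higher without doxycycline day 2 replicate 1 (0.46, 0.0484). Plxna4 did not exceed 4.33 CPM. It fell by 1.39 ± 0.36 between untreated days (edgeR adjusted p = 0.0151), a call lost without any of the 4 libraries compared (0.0524 to 0.144).

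Set side by side per exon length, the genes of a known ligand and receptor pair did not always move alike. Group means of Efnb2 and Ephb4 at day 2.5 were 8.80 and 20.5 CPM per kilobase in untreated, 14.7 and 38.5 in doxycycline and 32.7 and 47.0 in Flk1-positive samples, so both stood higher with induction. For Sema3e and Plxnd1 the means were 4.64 and 1.59, 1.61 and 33.5, and 0.548 and 55.2 CPM per kilobase. Ligand exceeded receptor in untreated samples, and receptor exceeded ligand in both induced groups of day 2.5. Sema4d and Plxnb1 stood at 7.15 and 16.0 in untreated and 4.90 and 25.3 in Flk1-positive samples, whereas Sema4c and Plxnb2 were both higher in the latter (11.5 and 21.9, then 23.0 and 40.4).

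**Figure D3:**
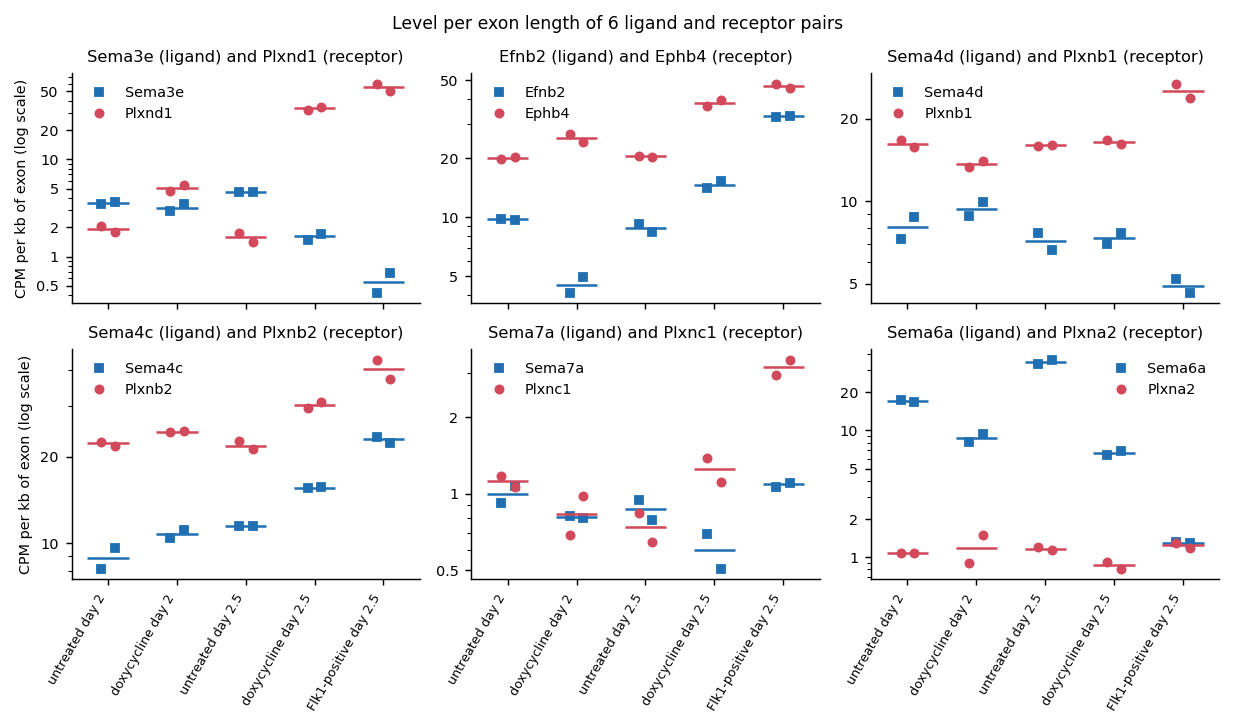
Each panel shows the ligand (squares) and receptor (circles) of 1 of 6 pairs, in CPM per kilobase of exon on a log axis, with 2 libraries per group and bars at group means. At day 2.5, Sema3e and Plxnd1 cross between the untreated and induced groups, whereas Efnb2 and Ephb4 both stand higher with induction. With doxycycline at day 2, Plxnd1 (5.08) also stands above Sema3e (3.19), but Efnb2 is lower than in untreated samples (4.53 against 9.75).

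The size of the doxycycline effect differed between the days for 13 members by the interaction test, of which 8 had a higher and 5 a lower log2 fold change at day 2.5 (6.87% and 5.24% of all genes). The higher ones were Plxnd1, Sema3a, Sema6d, Efnb2, Ephb1, Sema5b, Plxnc1 and Ephb4, and the lower ones Epha2, Sema6a, Sema3e, Epha1 and Efna3. Without doxycycline day 2 replicate 2 the 8 became 14. Efnb2 was the 1 member called in opposite directions at the 2 days.

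**Figure D4:**
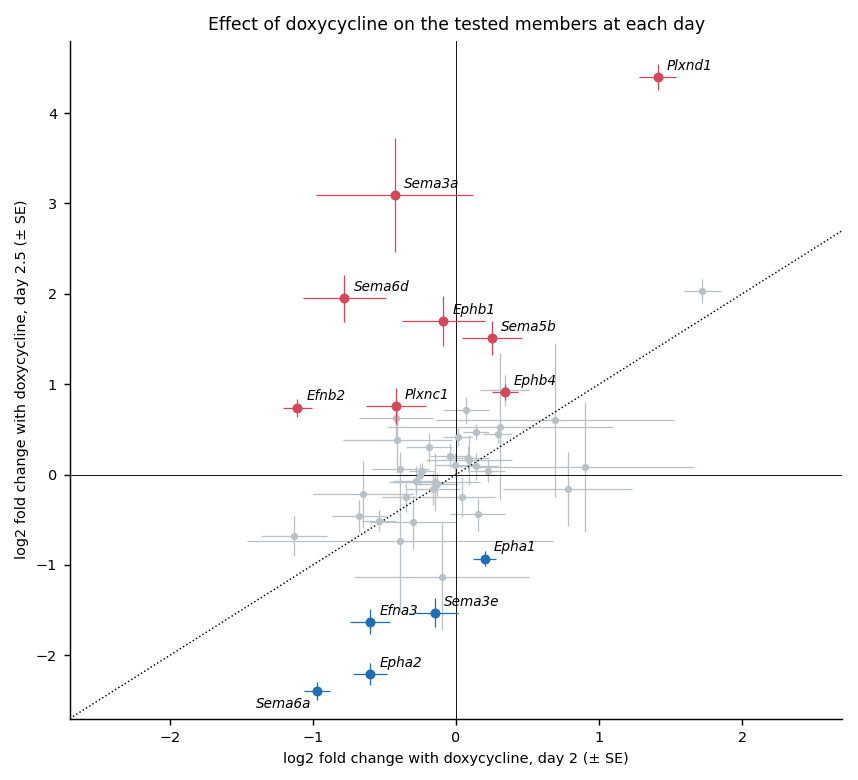
Points are the 49 tested genes, placed by the log2 fold change with doxycycline at day 2 (horizontal) and at day 2.5 (vertical) with SE bars; coloured and named points passed the interaction test, red where the effect was higher at day 2.5 and blue where it was lower, and the dotted line marks equal effects. Efnb2 lies left of 0 and above 0, at -1.11 and 0.74.

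Both neuropilins, the co-receptors of class 3 semaphorins, rose with doxycycline at day 2.5. Nrp1 was at 1.70 and 3.98 CPM in untreated, 35.9 and 42.1 CPM in doxycycline and 70.8 and 71.0 CPM in Flk1-positive libraries of day 2.5, and rose by 3.77 ± 0.27 with doxycycline (edgeR adjusted p = 1.22e-07). Nrp2 was at 48.3 and 47.5, 255 and 269.9, and 436 and 415 CPM, and rose by 2.45 ± 0.13 with doxycycline (edgeR adjusted p = 8.71e-10). At day 2 neither was called (log2 fold changes 0.47 and 0.20), but both were without doxycycline day 2 replicate 1 (edgeR adjusted p = 0.0304 and 0.00103). From doxycycline to Flk1-positive samples Nrp2 rose by 0.70 ± 0.12 (edgeR adjusted p = 2.61e-04). The rise of Nrp1 there, 0.86 ± 0.21 (edgeR adjusted p = 0.00529), was lost without doxycycline day 2.5 replicate 1 (0.0573) and with DESeq2 (adjusted p = 0.0572). Against untreated samples of day 2.5, Flk1-positive samples were 4.63 ± 0.27 higher for Nrp1 (edgeR adjusted p = 5.43e-09) and 3.15 ± 0.13 for Nrp2 (edgeR adjusted p = 2.26e-11).

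Of 24 tested semaphorin co-receptors and effectors, 12 were higher and 4 lower with doxycycline at day 2.5 (beside 16.1% and 13.8% of all genes), and 5 higher and 7 lower in Flk1-positive than in doxycycline samples (20.8% and 29.2%, against 20.5% and 21.3% of all genes, so the higher share was at the background). Without doxycycline day 2.5 replicate 1 these counts were 9 and 2, and 3 and 7, and without either doxycycline day 2 library the last 2 were 8 and 8. The lower ones include the adhesion molecules L1cam (-2.28 ± 0.17, edgeR adjusted p = 8.89e-08) and Nrcam (-1.66 ± 0.12, edgeR adjusted p = 9.00e-08). In Flk1-positive against doxycycline samples, 6 of 7 tested neuroectoderm markers were also lower (21.3% of all genes). With doxycycline at day 2.5, 4 of these markers were higher and 0 lower. Against untreated samples, 1 was higher and 3 lower in Flk1-positive ones. Group means of day 2.5 in untreated, doxycycline and Flk1-positive samples were 35, 14.3 and 2.94 CPM for L1cam. For Nrcam they were 81.9, 68 and 21.4 CPM. Of 10 pluripotency markers, 6 were lower and 1 higher with doxycycline at day 2.5 (13.8% and 16.1% of all genes). From doxycycline to Flk1-positive samples, 8 were lower and 0 higher (21.3% and 20.5%). The part of either set of markers in the falls of L1cam and Nrcam was not tested. Of 28 Eph and ephrin effectors, 16 were higher and 3 lower with doxycycline at day 2.5 (57.1% and 10.7%), and 10 higher and 2 lower in Flk1-positive than in doxycycline samples (35.7% and 7.14%), beside the same shares of all genes. The 3 became 0 without doxycycline day 2.5 replicate 2 and 1 without either untreated day 2.5 library, and the 10 became 6 without doxycycline day 2.5 replicate 2 or Flk1-positive replicate 1. The 2 became 1 or 0 without any of the 4 libraries compared or either untreated day 2 library. Arhgef15, which acts below Eph receptors, rose by 1.87 ± 0.13 at day 2 (edgeR adjusted p = 3.49e-07), by 2.44 ± 0.12 at day 2.5 (edgeR adjusted p = 7.69e-10) and by a further 2.10 ± 0.11 in Flk1-positive samples (edgeR adjusted p = 3.06e-09). The median log2 fold change with doxycycline at day 2.5 was 0.27 and 0.48 for these 2 lists, beside 0.00 for all genes. Of the 22 Slit, netrin and repulsive guidance genes, 6 were higher and 4 lower at day 2.5 with doxycycline (27.3% and 18.2%, against 16.1% and 13.8% of all genes). In Flk1-positive against doxycycline samples, 3 were higher and 7 lower (13.6% and 31.8%, against 20.5% and 21.3%), with a median log2 fold change of -0.55. With doxycycline at day 2.5, the netrin receptor Unc5c rose by 2.78 ± 0.21 (edgeR adjusted p = 9.99e-08) and the ligand Ntn1 fell by 1.67 ± 0.15 (edgeR adjusted p = 3.90e-07).

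Arterial and venous genes were listed because Efnb2 and Ephb4 are used to tell those vessels apart. With doxycycline at day 2.5, 10 of 14 arterial genes were higher and none lower (71.4%, where 16.1% of all genes were higher and 13.8% lower), among them Sox17 (4.39 ± 0.32, edgeR adjusted p = 5.09e-08) and Notch1 (1.43 ± 0.11, edgeR adjusted p = 6.47e-08). Of 5 tested venous and lymphatic genes, 2 (40.0%) were higher and none lower, led by Flt4 (3.03 ± 0.13, edgeR adjusted p = 8.71e-11). That list holds 9 genes, and Nr2f2, Emcn, Lyve1 and Stab2 had too few counts to be tested. Nr2f2 had at most 4 counts in any group. In Flk1-positive against doxycycline samples the counts were 10 higher of 14 and, for the second list, 4 higher and 1 lower of 5, where 20.5% of all genes were higher and 21.3% lower, with Aplnr 2.24 ± 0.11 higher (edgeR adjusted p = 1.52e-09). Nrp1 and Nrp2 are each on 1 of these lists as well as among the co-receptors.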

How the data were processed

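The raw counts per gene were deposited by the authors as 1 table for 10 libraries in 5 groups of 2. TopHat, HTSeq and DESeq2 and the build mm10 are named per the submitters' processing notes, without versions or roles. The annotation, strand setting and treatment of multiply mapped reads are, in the sources used here, not given, so reads of overlapping genes cannot be told apart. Spike-in entries (92, all at 0 counts) were left out.

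The main test was edgeR 4.0.16 (R 4.3.3). Its filterByExpr, at a minimum count of 10 and a minimum total of 15, left 14548 genes. After TMM scaling, the robust quasi-likelihood fit took all 10 libraries, with a mean for each group (5 residual degrees of freedom, common biological coefficient of variation 0.1). Adjusted p-values are Benjamini-Hochberg values over all genes tested, with a threshold of 0.05, and SE comes from the F statistic. The 6 comparisons were doxycycline at each day, Flk1-positive against both other groups of day 2.5, the untreated days against each other, and the interaction of treatment with day. CPM uses TMM-scaled library sizes. The procedure was tested on simulated data. The simulated counts held no trend on exon length or GC content, so that test says nothing about the spread of the doxycycline day 2 pair.

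All 51 members matched GENCODE M21 (GRCm38), the source of coordinates, exon lengths and overlaps, and 45 had a RefSeq promoter window. Members are given in every library where they passed a test with a log2 fold change of at least 1 and a group mean of at least 5 CPM, and Efnb2, Ephb4 and Plxnd1 throughout. From pathway lists, Nrp1, Nrp2 and up to 3 genes per list and comparison with the smallest adjusted p were named. Members and lists were chosen with earlier results of these data known. Alternatives were RLE scaling, DESeq2 1.42.0, voom in limma 3.58.1, no filter, only the groups compared, each library left out, a replicate block, and removal of trends on exon length and GC content.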

Additional observations from a re-analysis of the deposited data

Results flagged for a closer look

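The effect of doxycycline differed between day 2 and day 2.5, by the interaction test in edgeR, for 13 members, and each value here is the log2 fold change at day 2.5 minus that at day 2. It was higher at day 2.5 for Sema3a (3.52 ± 0.84 SE, adjusted p = 0.0127), Plxnd1 (2.99 ± 0.19), Sema6d (2.74 ± 0.39), Efnb2 (1.85 ± 0.14), Ephb1 (1.80 ± 0.41), Sema5b (1.26 ± 0.28), Plxnc1 (1.18 ± 0.29) and Ephb4 (0.57 ± 0.12). It was lower for Epha2 (-1.61 ± 0.17), Sema6a (-1.42 ± 0.13), Sema3e (-1.38 ± 0.23), Epha1 (-1.13 ± 0.12) and Efna3 (-1.02 ± 0.20). For Sema3a, the untreated group mean went from 1.24 CPM at day 2 to 0.211 CPM at day 2.5 (10 counts over both libraries). Its doxycycline means were 0.906 and 1.84 CPM, so the low untreated level of day 2.5 enters its value. The calls of Ephb1 and Ephb4 were lost without doxycycline day 2.5 replicate 2 (edgeR adjusted p = 0.0504 and 0.0595), and that of Sema5b without untreated day 2 replicate 2 (0.0595). Plxnc1 lost its call without untreated day 2 replicate 1, untreated day 2.5 replicate 2 or doxycycline day 2.5 replicate 1 (0.0849 to 0.0937). Sema3a lost its call without untreated day 2 replicate 2, untreated day 2.5 replicate 1 or doxycycline day 2.5 replicate 1 (0.0533 to 0.0641). The other 8 kept theirs under every alternative tried. The doxycycline pair of day 2 enters each of these values and had the widest spread of the 5 pairs (chi-square per gene 31.8).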

How the results depend on the processing

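Single-gene values under alternatives were counted only for the 18 members given in full and for Nrp1 and Nrp2. The rule for these members asked for a call with a log2 fold change of at least 1, or named them beforehand. Members with smaller effects, whose losses of calls are given above, are therefore not in these counts. Of the 2040 values, 1953 kept their side of the threshold, 65 lost their call, 22 gained one and 0 reversed. Changes of sign where neither fit passed the threshold were counted among the 1953, not as reversed. Members called higher with doxycycline at day 2 numbered 3, and 2 to 5 over fits that left out 1 library; those called lower numbered 7, 3 with only the groups compared, and 2 to 11 without 1 library. At day 2.5 the lower count of 7 became 13 with length and GC trends removed. Leaving out 1 library gave 9 to 15 lower calls in Flk1-positive against doxycycline samples, 4 to 11 higher and 0 to 5 lower calls between untreated days, and 6 to 14 higher calls in the interaction. The causes were not tested, except that these fits have fewer libraries.

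The replicate block moved no count of member calls by more than 1, for example from 15 to 16 lower calls in Flk1-positive against untreated samples. Replicate deviations correlated by -0.0337 to 0.0979 between groups and no label says that a number marks a shared batch, so the numbers were not taken as pairs. Members with few counts, such as Sema3a and Epha6, are limited by depth.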
